A study of Mus musculus with 24 samples.

Results

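Levels of mmu-miR-320-3p, mmu-miR-484, mmu-miR-423-5p, and mmu-miR-423-3p (mmu marks the mouse and is left out from here on) were described in 3 brain regions of neonatal mice, the cerebellum, the striatum/thalamus, and the cortex. These 4 mature miRNAs come from 3 hairpins and are 4 of the 1531 mouse miRNAs listed in the counts. They were read out by their miRBase names, and they had been picked because their counts fell in the cerebellum after hypoxic-ischemic brain injury (HIBI) with no like fall in the forebrain regions. The difference between HIBI and sham is for that reason given as a description, without a p-value. All 4 passed the minimum average of 10 CPM (counts scaled to the size of each library) in each of the 3 regions.

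The animals were CD1 pups of both sexes at postnatal day 9. In the 4 HIBI pups (pups 1, 4, 5, and 7) the right carotid artery was cauterized and, after 2 h of recovery, the pups breathed 8% oxygen for 30 min. The 4 sham control pups (pups 2, 3, 6, and 8) had anesthesia and neck surgery without cautery of the artery, and stayed in room air. The right cerebellum, striatum/thalamus, and cortex were taken 30 min after the injury, so each pup gave 3 libraries, each from 200 ng of RNA. No group had hypoxia or carotid cautery alone, so the parts of the injury cannot be told apart, and the whole cortex was used rather than the injured area. Each library is bulk tissue, in which fewer cells of a type and less RNA per cell cannot be told apart. The replicates were separate pups.

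Most miRNAs are cut from a long transcript by the enzyme Drosha, exported from the nucleus, cut again by Dicer, and loaded into an Argonaute protein. MiR-320 and miR-484 are known exceptions. Their short hairpins are transcribed as such, carry a cap, and reach Dicer without Drosha. MiR-423 is made from an intron of Nsrp1, a gene for a splicing regulatory protein, and both arms of its hairpin are commonly detected. MiR-320 is known for repressing a small heat shock protein in heart muscle, miR-484 for repressing the mitochondrial fission gene Fis1, and miR-423-5p as a circulating marker of heart failure. MiR-423, miR-484, and miR-320 are also often used as references in qPCR because their levels vary little between samples. Counts on mature miRNAs hold no measure of how a hairpin was cut, so the noncanonical origin is background here.

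The mature sequences are shown because the arms of miR-423 are compared with each other later and because all the printed members are rich in G and C. They are taken from RefSeq on GRCm38.p6, with the seed (bases 2 to 8, which pair with target transcripts) in capitals. The sequence table matched 3 of the 4 members, all but miR-320-3p.
miR-484: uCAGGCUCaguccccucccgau
miR-423-5p: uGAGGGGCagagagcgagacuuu
miR-423-3p: aGCUCGGUcugaggccccucagu

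MiR-484 lies at chr16:14159630-14159651 on the plus strand. Its hairpin (chr16:14159626-14159692, 67 bases) overlaps an exon of 1 transcript of Marf1 on the opposite strand, and the mature miRNA starts at base 5 of the hairpin. MiR-423-5p lies at chr11:77078122-77078144 and miR-423-3p at chr11:77078086-77078108, both on the minus strand. Their hairpin (chr11:77078064-77078172) lies in an intron of Nsrp1 in both of the gene's annotated transcripts that cover it, 263 bases from the start of the gene and on the gene's strand. It is shown whole, with the 5p arm and then the 3p arm in capitals, because both arms were counted.
Mir423: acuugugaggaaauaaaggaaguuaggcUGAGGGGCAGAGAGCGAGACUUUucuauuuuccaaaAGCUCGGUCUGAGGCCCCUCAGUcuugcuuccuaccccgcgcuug
The arms take up bases 29 to 51 and 65 to 87 of 109, and 17 base pairs joined them in the predicted fold.

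The G and C content was 63.6% for miR-484, 56.5% for miR-423-5p, and 65.2% for miR-423-3p. The median of the 368 miRNAs tested in the cerebellum that had a sequence was 47.8%. MiR-423-5p was rich in G (10 of its 23 bases) and miR-484 in C (10 of its 22 bases). No other mouse miRNA among the 1678 compared shared a seed with miR-484 or miR-423-3p. MiR-6921-5p shared the seed of miR-423-5p, but only 5 of its reads were counted over the 24 libraries. Among the 1678 compared, no other miRNA shared a stretch of 14 bases with any of these 3 members. Only 368 of the 434 miRNAs tested in the cerebellum had a sequence. A near-identical miRNA without a sequence could not be found by this search, so reads from such a miRNA are not excluded.

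Between 1254185 and 3406624 reads per library were counted on mouse miRNAs. The cerebellar library of HIBI pup 1 was the shallowest, and its median correlation with the libraries of its group was 0.944. The striatum/thalamus library of HIBI pup 5 was at 0.945, and the others ranged from 0.952 to 0.982. The members rested on 477 to 16327 reads per library. They took 1.03% to 1.46% of all reads in the sham cerebellum and 0.654% to 1.14% in the HIBI cerebellum. They took 0.395% to 0.740% in the striatum/thalamus and cortex of both groups.

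In the cerebellum, the members had lower levels in the HIBI pups than in the sham pups, from 0.96 lower on the log2 scale for miR-423-5p to 0.52 lower for miR-423-3p. In every one of the 4 HIBI libraries each member was below its sham mean. MiR-423-5p, from the 5p arm of the Nsrp1 intron hairpin, was at 2322, 1712, 1350.1, and 1513 CPM in sham pups 2, 3, 6, and 8. It was at 669, 1110.4, 799, and 955 CPM in HIBI pups 1, 4, 5, and 7. The highest HIBI value was below the lowest sham value, and the highest sham value, that of pup 2, was well above the rest of its group. The log2 fold change was -0.96 (SE 0.236).

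MiR-423-3p, from the other arm, was at 6791, 7553, 4912, and 5077 CPM in the sham pups and at 3959, 5497, 3122, and 4443 CPM in the HIBI pups, given here and below in the same order of pups. The groups overlapped, since HIBI pup 4 was above sham pups 6 and 8. The mean was 6084 ± 1297 CPM (SD, n = 4) in sham and 4255 ± 992 CPM (SD, n = 4) in HIBI, a log2 fold change of -0.52 (SE 0.230).

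MiR-320-3p was at 4492, 3732, 2638, and 3448 CPM in the sham cerebellum and at 2549.8, 2823, 1718, and 2488 CPM in the HIBI cerebellum. Only sham pup 6 reached down into the range of the HIBI pups, below HIBI pup 4. The mean went from 3578 ± 766 to 2395 ± 474 CPM (SD, n = 4 each), a log2 fold change of -0.58 (SE 0.226). Its other arm, miR-320-5p, had between 0 and 4 reads in any library, far below the CPM minimum, and is not described further.

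MiR-484 was at 1898, 1804, 1199.7, and 1284 CPM in the sham cerebellum and at 1198, 1329, 704, and 1039.5 CPM in the HIBI cerebellum. Sham pups 6 and 8 were below HIBI pup 4, and HIBI pup 5 was the lowest of the 8. The mean went from 1546 ± 356 to 1068 ± 269.7 CPM (SD, n = 4 each), a log2 fold change of -0.53 (SE 0.246). HIBI pup 5 was the lowest library for miR-320-3p and miR-423-3p as well, while pup 1 was the lowest for miR-423-5p.

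**Figure D1:**
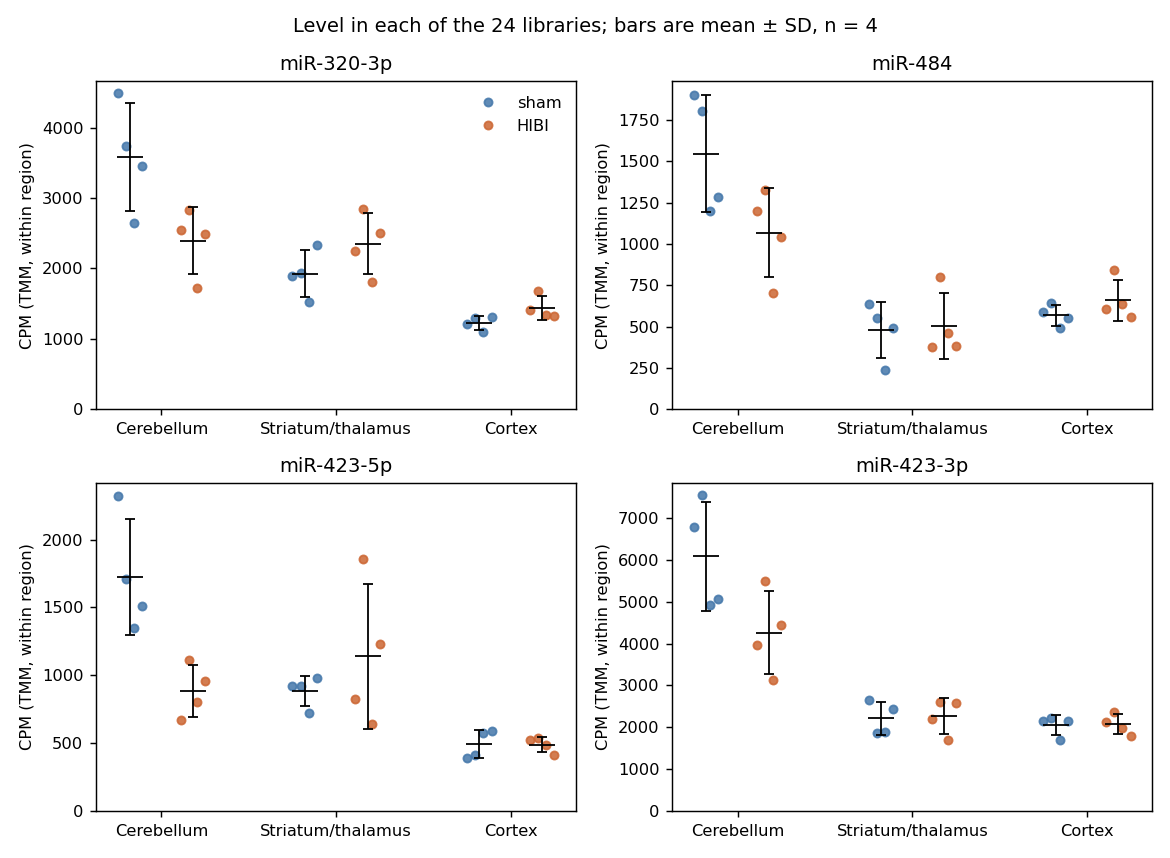
Level of each member in every library, in CPM on a linear axis after TMM scaling within a region, with sham and HIBI pups as points and bars of the group mean ± SD (n = 4). In the cerebellum the HIBI means lie below the sham means for all 4 members, with separate groups for miR-423-5p only (669 to 1110.4 against 1350.1 to 2322 CPM), whereas in the striatum/thalamus and cortex the groups overlap except for miR-320-3p in the cortex.

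The study's criteria were a fold change of more than 1.5 with p under 0.05 before adjustment. By these, 1 of the 4 members was counted as lower in the cerebellum, miR-423-5p. Of the 434 miRNAs tested there, 4.15% were counted as lower. Such counts come from a refit of the reads, and the study itself reported more miRNAs in the cerebellum and in the cortex. Every HIBI library was below every sham library for 1 of the 4 members, again miR-423-5p, and for 3.00% of the miRNAs tested. Since the members were chosen on this comparison, these counts carry no evidence about them. No miRNA in the cerebellum reached an adjusted p under 0.05 in edgeR's quasi-likelihood test with Benjamini-Hochberg adjustment, while 44 had an unadjusted p under 0.05.

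Ranked from the most negative fold change of the 434, miR-423-5p was at place 7, miR-320-3p at 35, miR-484 at 44, and miR-423-3p at 49. The median log2 fold change was -0.56 over the 4 members and 0.11 over all 434. The scaling of the libraries moved that overall median, to 0.27 with library size only, to -0.019 with upper quartile scaling, and to 0.20 with scaling to 6 other reference miRNAs. The members stayed negative under each of these and under a GC correction that could be made for the 3 with a sequence. The values ran from -1.11 to -0.79 for miR-423-5p, from -0.72 to -0.40 for miR-320-3p, from -0.68 to -0.36 for miR-484, and from -0.66 to -0.34 for miR-423-3p.

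**Figure D2:**
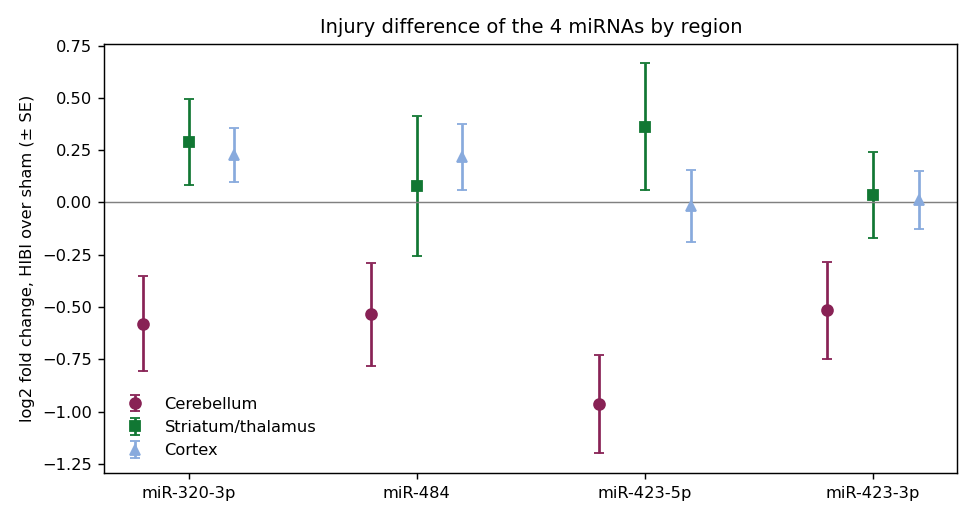
Log2 fold change of HIBI over sham for each member in the 3 regions (points, with bars of ± SE, n = 4 pups per group), with a line at 0. The cerebellar values lie between -0.96 and -0.52, and those of the striatum/thalamus and cortex between -0.017 and 0.36.

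In the striatum/thalamus none of the 4 members met the criteria, where 2.75% of the 436 miRNAs tested did. MiR-320-3p was at 1898, 1941, 1526, and 2334 CPM in the sham pups and at 2248, 2842, 1812, and 2507 CPM in the HIBI pups, a log2 fold change of 0.29 (SE 0.204), or 0.51 without pup 8. MiR-423-5p was at 918, 921, 724, and 979.7 CPM in sham and at 826, 1853, 641, and 1234 CPM in HIBI. HIBI pups 4 and 7 were above all sham pups and HIBI pup 5 was below them, so the HIBI group was spread on both sides of sham, with a log2 fold change of 0.36 (SE 0.302). It was 0.10 without pup 4, and 0.59, 0.56, and 0.55 without pups 1, 5, and 8.

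MiR-484 in the striatum/thalamus was at 635, 549.6, 237, and 493 CPM in sham and at 376, 799, 462, and 383 CPM in HIBI. The groups covered much the same range, and the log2 fold change was 0.078 (SE 0.334), from -0.17 without pup 4 to 0.30 without pup 7. MiR-423-3p ran from 1865 to 2652 CPM in sham and from 1702 to 2597 CPM in HIBI, with a log2 fold change of 0.036 (SE 0.207).

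In the cortex none of the 4 members met the criteria either, where 3.41% of the 410 miRNAs tested did. MiR-320-3p was at 1205, 1294, 1100.2, and 1315 CPM in sham and at 1407, 1681, 1343, and 1320.0 CPM in HIBI. Every HIBI library was above every sham library, by a narrow margin between HIBI pup 7 and sham pup 8, which was also so for 2.68% of the miRNAs tested. The log2 fold change of 0.23 (SE 0.131) had the opposite sign to that in the cerebellum, and was 0.14 without pup 4.

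MiR-484 in the cortex was at 590.4, 639.9, 489, and 551 CPM in sham and at 607, 839, 639, and 555 CPM in HIBI, a log2 fold change of 0.22 (SE 0.158), 0.079 without pup 4, and 0.070 with GC correction. The arms of miR-423 lay close to 0 there, with -0.017 (SE 0.170) for miR-423-5p and 0.012 (SE 0.140) for miR-423-3p. MiR-423-5p ran from 391 to 591 CPM in sham and from 409 to 534 CPM in HIBI. MiR-423-3p ran from 1707 to 2212 CPM in sham and from 1785 to 2359 CPM in HIBI. These small values for miR-423 in the cortex, and those of miR-423-3p and miR-484 in the striatum/thalamus, changed sign with the scaling, the GC correction, or a pup left out.

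In a single model of the 24 libraries, the mean effect of HIBI in the striatum/thalamus and cortex minus that in the cerebellum was 1.21 (SE 0.332) on the log2 scale for miR-423-5p. It was 0.91 (SE 0.240) for miR-320-3p, 0.75 (SE 0.341) for miR-484, and 0.60 (SE 0.241) for miR-423-3p. This model left out the pup, so its SEs treat the 3 libraries of a pup as independent. The members had been picked for this forebrain minus cerebellum difference, so it is not tested. Ranked from the highest of 435 miRNAs, they stood at places 12, 36, 49, and 63, so other miRNAs that were not picked differed more between regions. With a GC correction the difference was 0.89 for miR-423-5p, 0.39 for miR-484, and 0.22 for miR-423-3p.

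GC content had a weak to moderate correlation with the HIBI effect across miRNAs, negative in the cerebellum and positive in the other regions. Across the 368 miRNAs with a sequence in the cerebellum, GC content and log2 fold change had a Pearson correlation of -0.225 and a Spearman correlation of -0.251. The same correlations were 0.229 and 0.392 across 372 miRNAs in the striatum/thalamus, and 0.282 and 0.328 across 353 in the cortex. These are descriptions across miRNAs of the same libraries, which are not independent replicates. MiRNAs with a GC content of 60% or more took 4.66% to 8.70% of the reads on miRNAs with a sequence in the HIBI cerebellum. The range in the sham cerebellum was 5.83% to 8.11%, so the groups overlapped. In the cerebellum the median log2 fold change was -0.044 for the 66 miRNAs with a GC content of 60% or more, among them miR-484 and miR-423-3p, and 0.14 for the 302 below. After the correction the cerebellar log2 fold change was -0.79 for miR-423-5p, -0.39 for miR-484, and -0.34 for miR-423-3p.

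A few markers of other cells met the study's criteria in the cerebellum, and most did not. Of all 434 miRNAs tested there, 34 met them in this refit, 18 lower (4.15%) and 16 higher. Of 5 erythrocyte miRNAs, 3 passed the CPM minimum in the cerebellum. Of these, 2 fell by the study's criteria, miR-486a-5p (-0.86, SE 0.272) and miR-486b-5p (-0.84, SE 0.275). Their mean levels were nearly the same, at 476 and 480 CPM in HIBI and 862 and 860 CPM in sham. Reads of this pair may not have been told apart, so the 2 may not be separate markers. MiR-451a, the defining red cell miRNA, had a log2 fold change of -0.23 (SE 0.383), and miR-144-3p was below 1 CPM on average in either group. The summed erythrocyte level ran from 1277 to 2355 CPM in sham and from 948 to 1328 CPM in HIBI. It ran from 1317 to 1726 CPM in sham and from 948 to 2446 CPM in HIBI in the striatum/thalamus, and from 748 to 1105 CPM and from 765 to 1070.4 CPM in the cortex.

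Of 7 miRNAs of choroid plexus and ciliated epithelium, 5 were tested in the cerebellum. All 5 had negative values and none met the criteria, and the sum ran from 2680.0 to 9831 CPM in sham, highest in pup 2, and from 2775 to 4199 CPM in HIBI. Of 4 myeloid and platelet miRNAs only miR-223-3p was tested in the cerebellum and it did not meet the criteria, with a summed level of 15.8 to 39.2 CPM in sham and 35.6 to 54.1 CPM in HIBI. Of 3 skeletal muscle miRNAs, 1 was higher by the criteria in the cerebellum, miR-1a-3p (1.05, SE 0.481), while miR-206-3p, the most abundant of the 3, was at -0.53 (SE 0.205) and missed the fold criterion, and the sum was 470.2 to 577 CPM in sham and 372 to 664 CPM in HIBI. The 4 neural miRNAs (miR-124-3p, miR-9-5p, miR-9-3p, and miR-128-3p) were abundant in every library, with a cerebellar sum from 115886 to 209237 CPM, and none met the criteria. In the striatum/thalamus 1 of 6 choroid plexus and ciliated miRNAs was higher by the criteria, miR-34b-3p, with a sum of 1973 to 2735 CPM in sham and 1906 to 4726 CPM in HIBI. No other marker met the criteria in the striatum/thalamus or cortex. The part of these cell types in the cerebellar values of the members was not tested. Without sham pup 2, the log2 fold change was -0.79 for miR-423-5p, -0.45 for miR-320-3p, -0.42 for miR-484, and -0.46 for miR-423-3p. Without HIBI pup 1, the shallowest library, it was -0.85, -0.61, -0.59, and -0.48 in the same order.

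**Figure D3:**
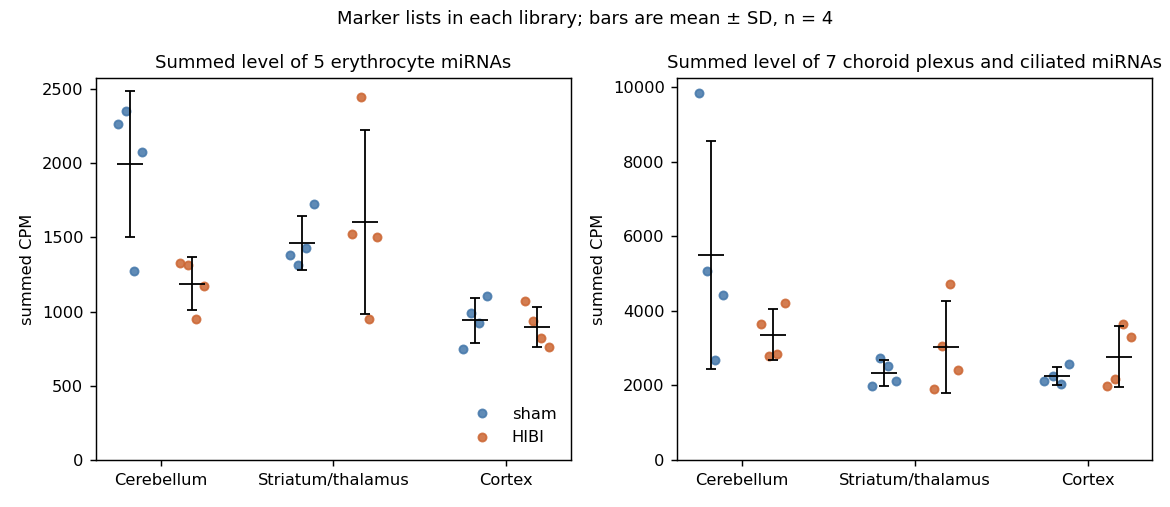
Summed CPM of the 5 erythrocyte miRNAs and of the 7 choroid plexus and ciliated miRNAs in each library on linear axes, with sham and HIBI pups as points and bars of the mean ± SD (n = 4). In the cerebellum the erythrocyte sum is 1277 to 2355 CPM in sham and 948 to 1328 CPM in HIBI, and the choroid plexus sum of sham pup 2 (9831 CPM) stands above the rest.

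The sham pups show how the members were distributed over the regions. The sham cerebellar libraries entered the choice of members, and a member picked for falling there tends to have a high sham level there. The contrasts with cerebellum are for that reason a description, and p-values are given for the contrast of cortex with striatum/thalamus only. The sham libraries of those forebrain regions entered the choice as well, through the lack of a like fall there. These p-values are thus not independent of the choice and carry that limit. The 12 sham libraries were fitted in a single model over 423 miRNAs, without a term for the pup. In the sham pups all 4 members were highest in the cerebellum. MiR-320-3p was at 3472 ± 745 CPM in the cerebellum. It was at 1899 ± 382 CPM in striatum/thalamus, and 1188 ± 83.0 CPM in cortex (SD, n = 4 each). The contrast of cortex with cerebellum was -1.55 (SE 0.191) on the log2 scale. The contrast of striatum/thalamus with cerebellum was -0.87 (SE 0.189). The cortex was lower than the striatum/thalamus by a contrast of -0.68 (SE 0.188, adjusted p = 0.0104 in edgeR's quasi-likelihood test with Benjamini-Hochberg adjustment). This last call was lost without pup 3 (-0.71, adjusted p = 0.0549), without pup 8 (-0.50, adjusted p = 0.139), with upper quartile scaling (-0.51, adjusted p = 0.0509), with an average minimum of 1 CPM (-0.43, adjusted p = 0.118), and with no minimum (-0.37, adjusted p = 0.307).

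MiR-423-5p had the same order of regions, at 1673 ± 414 CPM in the sham cerebellum, 873 ± 141 CPM in striatum/thalamus, and 476 ± 93.5 CPM in cortex (SD, n = 4 each). The contrast of cortex with cerebellum was -1.81 (SE 0.212), the most negative of the 4 members. The contrast of striatum/thalamus with cerebellum was -0.94 (SE 0.208). The contrast of cortex with striatum/thalamus was -0.88 (SE 0.208, adjusted p = 0.00411) by edgeR's quasi-likelihood test, which was not called with no CPM minimum (-0.58, adjusted p = 0.0802). These forebrain libraries entered the choice of members too, so neither p-value is independent of it.

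MiR-423-3p was at 5904 ± 1268 CPM in the sham cerebellum, 2188 ± 487 CPM in striatum/thalamus, and 1985 ± 226 CPM in cortex (SD, n = 4 each). It was lower than in the cerebellum by contrasts of -1.43 (SE 0.196) in the striatum/thalamus and -1.57 (SE 0.197) in the cortex. Between cortex and striatum/thalamus no difference was detected for this arm, with a contrast of -0.14, a 95% interval from -0.55 to 0.27, and an adjusted p of 0.603 by edgeR's quasi-likelihood test.

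MiR-484 was at 1501 ± 347 CPM in the sham cerebellum, 476 ± 185 CPM in striatum/thalamus, and 549.7 ± 67.5 CPM in cortex (SD, n = 4 each). The contrasts with cerebellum were -1.66 (SE 0.275) in the striatum/thalamus and -1.45 (SE 0.273) in the cortex. Between cortex and striatum/thalamus the contrast was 0.21, with a 95% interval from -0.36 to 0.78 and an adjusted p of 0.573 by edgeR's quasi-likelihood test, so their order is not settled.

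Regional differences were common among miRNAs. Beside the 4 of 4 members lower in the cortex than in the cerebellum, 34.0% of the 423 miRNAs tested were lower at an adjusted p under 0.05, and beside the 4 of 4 lower in the striatum/thalamus than in the cerebellum, 31.2% were lower. Since the sham cerebellum entered the choice, nothing is read from these 2 counts. Beside the 2 of 4 members lower in the cortex than in the striatum/thalamus, 22.0% were lower, and this count is a description too. The contrast of striatum/thalamus with cerebellum depended on the scaling. Scaled to the 6 other reference miRNAs, an alternative added after the data were seen, it was 0.18 for miR-320-3p, 0.11 for miR-423-5p, -0.39 for miR-423-3p, and -0.61 for miR-484. Of those references, miR-16-5p (-2.23) and miR-93-5p (-2.48) themselves differed between these sham regions.

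In the HIBI pups, whose cerebellar levels were lower by choice, the same contrast of striatum/thalamus with cerebellum was -0.059 (SE 0.201) for miR-320-3p, 0.33 (SE 0.295) for miR-423-5p, -0.94 (SE 0.214) for miR-423-3p, and -1.11 (SE 0.273) for miR-484. The contrast of cortex with cerebellum was -0.75 (SE 0.202) for miR-320-3p, -0.87 (SE 0.298) for miR-423-5p, -1.05 (SE 0.214) for miR-423-3p, and -0.70 (SE 0.270) for miR-484. These values rest on the libraries the choice used and were not tested.

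The arms of miR-423 come from the same hairpin and were counted in the same library, so the share of the 5p arm needs no scaling between libraries. In the cerebellum the 5p arm made up 25.5%, 18.5%, 21.6%, and 23.0% of the miR-423 reads in sham pups 2, 3, 6, and 8. In the striatum/thalamus of the same pups it was 25.7%, 33.1%, 27.7%, and 28.6%, higher than in the cerebellum in 4 of 4 pups. In the cortex it was 15.4%, 15.7%, 25.3%, and 21.6%, lower than in the striatum/thalamus in 4 of 4 pups. The 3p arm held most of the reads in every library of the 24.

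The sham share was 22.1 ± 2.92% in the cerebellum, 28.8 ± 3.11% in striatum/thalamus, and 19.5 ± 4.80% in cortex (SD, n = 4 each). The striatum/thalamus exceeded the cerebellum by 6.64 percentage points, and the cortex and cerebellum differed by -2.60 points. Both are descriptions, since the sham cerebellar counts of the arms entered the choice. The cortex was lower than the striatum/thalamus by a difference of -9.24 points. A two-sided exact permutation test over all 70 arrangements gave p = 0.0286, the smallest p that 4 against 4 pups allow. After adjustment over the 3 pairs of regions this permutation p was 0.0429. It was under 0.05 only because the contrast of striatum/thalamus with cerebellum, given as a description, had the same p before adjustment. The sham libraries of cortex and striatum/thalamus also entered the choice of members. With the regions paired by pup, an exact sign-flip permutation test of the difference between cortex and striatum/thalamus gave p = 0.125 (adjusted 0.188). This is the smallest p that 4 pairs allow, so the difference did not pass in the paired test.

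In the HIBI cerebellum the 5p share was 14.5%, 16.8%, 20.4%, and 17.7% in pups 1, 4, 5, and 7. The mean was 17.3 ± 2.45% (SD, n = 4) against 22.1% in sham, a difference of -4.78 points, and HIBI pup 5 lay above sham pup 3. It was 32.2 ± 6.76% in the HIBI striatum/thalamus, raised by pup 4 (41.6%), and 19.1 ± 0.616% in the HIBI cortex. As both arms were chosen on their HIBI values, these shares were not tested. The exact binomial 95% interval of the lowest share, pup 1 in the cerebellum, ran from 13.6% to 15.3%, which covers counting error only.

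**Figure D4:**
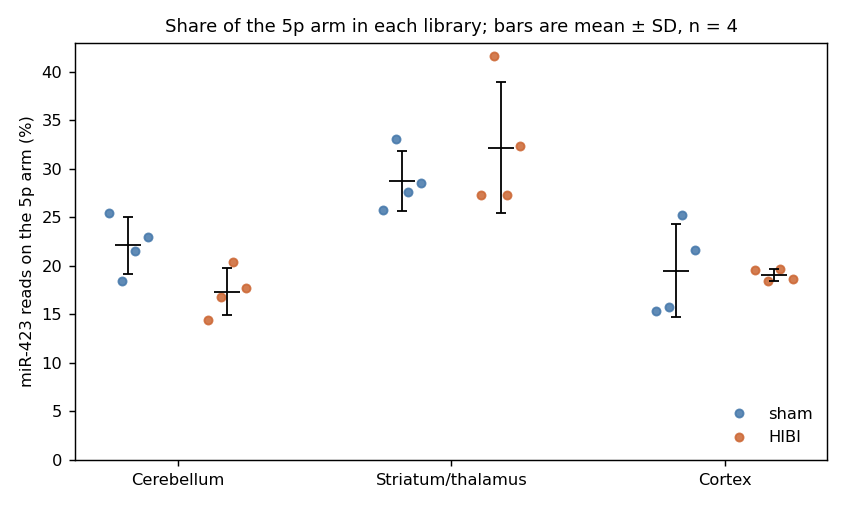
Share of the miR-423 reads on the 5p arm in percent, in every library, with sham and HIBI pups as points and bars of the mean ± SD (n = 4). The sham shares are 22.1 ± 2.92% in the cerebellum, 28.8 ± 3.11% in striatum/thalamus, and 19.5 ± 4.80% in cortex (SD, n = 4 each).

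Related miRNAs were read from a pair of lists. The first held 13 miRNAs outside the members, all known for noncanonical biogenesis. They were mirtrons, which splicing cuts from short introns, miRNAs from small nucleolar RNAs, and miR-451a, which Ago2 cuts. Of these 13, 9 were tested in the cerebellum. None of these 9 met the criteria there, 3 had negative values, and their median was 0.11, beside 0.11 over all miRNAs. In the striatum/thalamus 1 of 11 was higher, miR-664-5p from a small nucleolar RNA (1.31, SE 0.573), with a median of 0.077 beside -0.029 over all. In the cortex none of 9 met the criteria, with a median of 0.15 beside -0.018. The highest of the list in the cerebellum, miR-1839-5p, was at 551.6 CPM in HIBI and 421 CPM in sham, and its log2 fold change was 0.39 (SE 0.278).

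Of 6 other miRNAs often used as references in qPCR, all were tested in the 3 regions and none met the criteria. Their median was -0.052 in the cerebellum, -0.12 in striatum/thalamus, and -0.099 in cortex. The most abundant, miR-103-3p, had a cerebellar log2 fold change of 0.025 (SE 0.204), and the least abundant, miR-425-5p, of -0.15 (SE 0.177). MiR-191-5p was at -0.29 (SE 0.211).

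**Figure D5:**
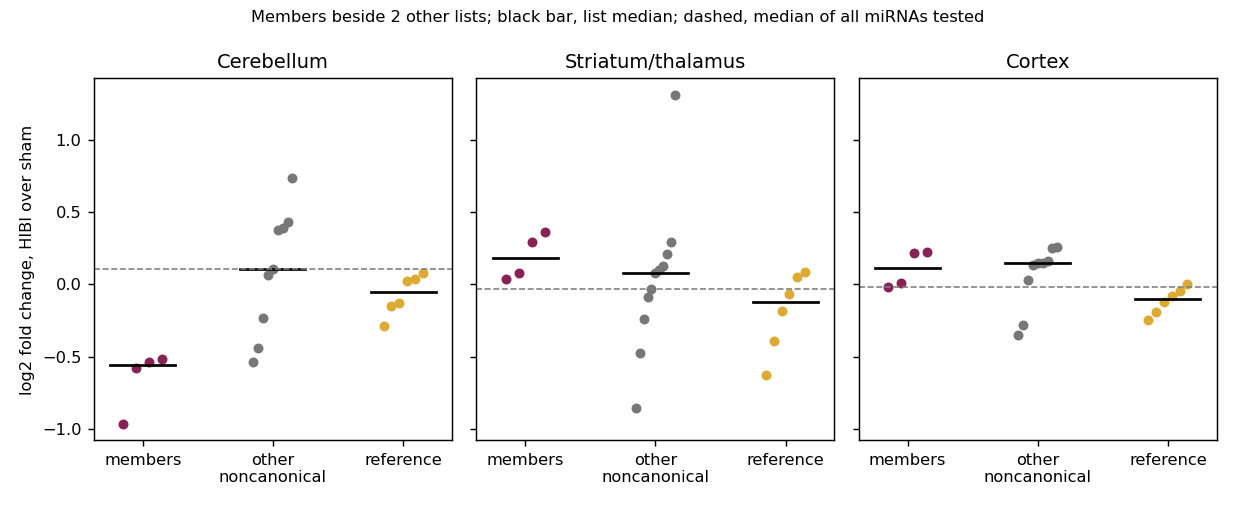
Log2 fold change of HIBI over sham for the 4 members, the noncanonical miRNAs outside the members, and the reference miRNAs that passed the CPM minimum in each region. Each miRNA is a point, the list median a black bar, and the median of all miRNAs tested a dashed line. In the cerebellum the medians are -0.56 for the members, 0.11 for the noncanonical miRNAs outside the members, and -0.052 for the references.

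As qPCR references are meant to vary little, the spread of each miRNA over the 24 libraries was set beside that of 435 miRNAs. A fall in the cerebellum alone, for which the members were picked, adds to this spread, so their places are a description. The SD of the log2 CPM was 0.552 for miR-320-3p, 0.646 for miR-423-3p, 0.723 for miR-423-5p, and 0.738 for miR-484, around a median of 0.686. Ranked from the steadiest, they were at places 120, 195, 238, and 244. MiR-191-5p was the steadiest of the 435 (0.206), followed at a distance by miR-103-3p (0.265, place 7) and miR-425-5p (0.339, place 22), whereas miR-93-5p (1.14) and miR-16-5p (1.17) varied more than any member. Within the groups of 4 pups the members' SD was lower, at 0.268 for miR-320-3p, 0.271 for miR-423-3p, 0.402 for miR-423-5p, and 0.423 for miR-484, beside a median of 0.457.

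For each member the miRNAs with the most like pattern over the 24 libraries were found by the root mean square difference of log2 CPM, each miRNA centred on its own mean, among 431 others. MiR-320-3p was closest to miR-455-3p (0.215), let-7d-3p (0.229), and miR-99b-5p (0.246), where the median difference was 0.917. MiR-423-3p was closest to miR-106b-3p (0.241), miR-532-5p (0.296), and let-7b-3p (0.307). MiR-423-5p was closest to let-7d-3p (0.325), miR-486a-5p (0.328), and miR-1306-5p (0.329), and miR-484 to miR-532-5p (0.392), miR-532-3p (0.395), and miR-30c-5p (0.406).

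Between members the difference was 0.301 for miR-320-3p and miR-423-5p, 0.347 for miR-484 and miR-423-3p, and 0.503 for the arms of miR-423. Each arm thus had a closer match in another hairpin than in its own partner. Seen from miR-423-5p, the 3p arm was still at place 13 from the closest, with members included in the ranking. The median difference of miR-423-5p from miRNAs outside the members was 1.04. In the cerebellum 4 of the 10 neighbours were lower in HIBI by the study's criteria, let-7d-3p (-0.81), miR-486a-5p (-0.86), miR-1306-5p (-0.75), and let-7b-3p (-0.68), where 4.15% of all miRNAs tested were lower. The neighbours were found by their likeness to members picked for this fall, so nothing is read from the count. MiR-532-5p, the closest to miR-484 outside the members, was at 0.017 (SE 0.195), and miR-30c-5p was at -0.069 (SE 0.189). The likeness measure used the same libraries as these fold changes.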

How the data were processed

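MiRNA-Seq counts were analysed for 24 libraries, 3 regions of 8 pups. Reads were mapped by the authors with bowtie2 against the mature mouse miRNAs of miRBase, and the authors deposited raw read counts per mature miRNA, 1 table per region. The versions, the miRBase release, and the handling of reads with several matches are not given in the sources used here. The log2 fold changes, average log2 CPM, p-values, and false discovery rates of the authors' own edgeR comparison, deposited in the same tables, were not used. Each table held 1551 entries, and its 20 castor bean entries (0.000156% of the counts) were left out.

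Counts were scaled by TMM and fitted with edgeR's quasi-likelihood model (edgeR 4.0.16, limma 3.58.1, R 4.3.3) over all mouse miRNAs with an average above 10 CPM, for HIBI against sham in the 8 libraries of a region, for the regions in the 12 sham libraries, and for the interaction in all 24. P-values were adjusted by the Benjamini-Hochberg method over all miRNAs tested. The SE of a log2 fold change is the fold change divided by the square root of its F statistic. The 5p share was compared with exact permutation tests. Tests planned for contrasts with the sham cerebellum are given as descriptions, because those libraries entered the choice. The sham forebrain libraries entered it too, so the p-values between cortex and striatum/thalamus are not independent of the choice. Alternatives were DESeq2 1.42.0, library size only, upper quartile scaling, scaling to 6 reference miRNAs, a loess GC correction, other CPM minimums, a pup block, and each pup left out. The fits were also run on simulated counts, and the outcome is not given here. Folds of hairpins came from RNAfold 2.7.2. No pair of replicates agreed within sampling noise. At 1254185 reads, the shallowest library, the members' counting error is small beside the spread between pups.

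The same pup gave all 3 regions, so libraries are paired by pup. Deviations from the group means correlated across 435 miRNAs with a median of 0.160 (cerebellum and striatum/thalamus), 0.249 (cerebellum and cortex), and 0.191 (striatum/thalamus and cortex), above 0.1 in 5, 7, and 5 of 8 pups.

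The members and lists were chosen with earlier results of these data known. The miRNAs named were the members, the other arms of their hairpins, miRNAs with the same seed, the 3 miRNAs with the most like pattern for each member, and, of the lists, those that met the criteria or had the highest or lowest level. MiR-451a, miR-144-3p, miR-223-3p, miR-191-5p, miR-93-5p, miR-16-5p, and the neural miRNAs were named beside this rule, after their values were seen.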

Additional observations from a re-analysis of the deposited data

Results flagged for a closer look

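Among the 30 groups of 4 libraries examined for the members, 1 held a library far from the other 3, the level of miR-423-3p in the sham cortex, where pup 6 was at 1707 CPM and the others between 2139 and 2212 CPM. Its gap was above Dixon's critical value for 4 samples, which chance passes in about 1 of 20 groups.

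MiR-320-3p had opposite signs in the cerebellum and cortex. The log2 fold change of HIBI over sham was -0.58 in the cerebellum, with every HIBI library below the sham mean, and 0.23 in the cortex, with every HIBI library above it, or 0.14 in the cortex without pup 4. The difference was not tested, since the miRNA had been chosen for it.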

How the results depend on the processing

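The direction of every member in the cerebellum stayed the same with DESeq2, under each scaling, CPM minimum, and GC correction, and with each pup left out. With a pup left out the log2 fold change ran from -1.11 to -0.79 for miR-423-5p, from -0.74 to -0.44 for miR-320-3p, from -0.68 to -0.37 for miR-484, and from -0.66 to -0.39 for miR-423-3p. The GC correction could not be made for miR-320-3p. Where a value moved, the cause was not tested. With GC correction the forebrain minus cerebellum difference was 0.22 for miR-423-3p, 0.39 for miR-484, and 0.89 for miR-423-5p.

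The number of miRNAs that met the criteria in the cerebellum was 34 in this refit (16 higher and 18 lower). It was 61 when averages down to 1 CPM were kept, 106 with no minimum, and 18 (without pup 2) to 82 (without pup 6) with a pup left out. The higher calls were 47.1% of the total, 80.4% with library size only, 15.2% with upper quartile scaling, and 59.3% with reference scaling. In the striatum/thalamus the number was 12, 19 above 1 CPM, 54 with no minimum, 19 with DESeq2, and 5 (without pup 3) to 38 (without pup 5) with a pup left out. In the cortex it was 14, 41 above 1 CPM, and 86 with no minimum.

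In sham, cortex minus striatum/thalamus for miR-320-3p was -0.51 with upper quartile scaling, -0.43 above 1 CPM, -0.37 with no minimum (adjusted p = 0.307, edgeR), and -0.71 to -0.50 with a pup left out. For miR-423-3p it was 0.027, 0.10, and 0.17 under the same 3 settings, 0.36 with GC correction, -0.72 with reference scaling (adjusted p = 0.0170, edgeR), and -0.27 to 0.012 with a pup left out. For miR-423-5p it was -0.58 with no minimum. For miR-484 it was 0.69 with GC correction (adjusted p = 0.0175, edgeR) and -0.37 with reference scaling. Sham forebrain libraries entered the choice of members, so these p-values are not independent of it. Striatum/thalamus minus cerebellum with reference scaling was 0.18 for miR-320-3p, -0.61 for miR-484, 0.11 for miR-423-5p, and -0.39 for miR-423-3p. In the HIBI libraries, cortex minus cerebellum was -0.70 for miR-484, with 138 miRNAs past an adjusted p of 0.05 against 274 in sham. Striatum/thalamus minus cerebellum there was -0.059 for miR-320-3p and 0.33 for miR-423-5p. Cortex minus striatum/thalamus had 163 such miRNAs in sham, and 95 (without pup 8) to 156 with a pup left out.

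With the pup as a block, the 5p share difference of -9.24 points between cortex and striatum/thalamus had an adjusted exact permutation p of 0.188. That of 6.64 points between striatum/thalamus and cerebellum was a description. The block changed no other call. With a pup left out, the latter ran from 3.99 to 8.77 points and the former from -11.5 to -6.55 points, where 3 against 3 pups cannot go below an exact permutation p of 0.10.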
